A study of Mus musculus with 8 samples.

Results

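The ERK feedback and target genes are 10 genes chosen by symbol: Dusp6, Dusp4, Spry1, Spry2, Spry4, Spred1, Spred2, Il17rd, Etv4 and Etv5. All 10 stand in the deposited table of 21812 gene symbols, and all 10 passed the filter on low counts together with 14229 genes in total. The table holds total RNA counts of mouse embryonic stem cells in PrE-induce medium, where PrE is taken here as primitive endoderm, the lineage that lines the blastocyst cavity. There are 4 groups of 2 libraries in 2 lines, with Mettl3 WT as the control of Mettl3 cKO and Virma WT as that of Virma cKO. The genotype tag reads WT, Mettl3_cKO or Virma_cKO. N6-methyladenosine (m6A) is put on RNA by a multi-protein methyltransferase, in which Mettl3 is the enzyme and Virma a scaffold. The labels do not say how or when the alleles were deleted, how many clones each line holds or whether the 2 libraries of a group came from separate cultures, so p-values measure no more than how these libraries vary, which may be technical.

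Fibroblast growth factors bind receptor tyrosine kinases and signal through Ras, Raf and MEK to the kinase ERK. Active ERK induces its own brakes: dual-specificity phosphatases that dephosphorylate MAP kinases, Sprouty and Spred proteins that act between receptor and Raf, and the membrane protein Sef. It also induces the ETS transcription factors Etv4 and Etv5, and the RNA level of this set is a common readout of pathway output. In the inner cell mass, FGF signalling through ERK favours primitive endoderm over epiblast. The repressor Capicua binds TGAATGA and TGAATGG elements near several of these genes and is itself inactivated downstream of ERK.

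Promoter windows are shown because 4 of the members rose together in both knockouts, while Spry2 fell in both and Etv5 fell in Virma cKO. RefSeq (GRCm38.p6) gave entries for 7 of the 10 members in 8 windows, with no entry used for Dusp4, Spry4 and Etv4. Each window below is the 250 bases before a RefSeq start, on the strand of the gene and outside GENCODE exons. Capitals mark TGAATGA or TGAATGG on either strand, the reverse complements being TCATTCA and CCATTCA. The Dusp6 window (chr10:99262981-99263230, plus strand) and the Spred1 window (chr2:117120821-117121070, plus strand) belong to genes higher in both knockouts. The Spry2 window (chr14:105896820-105897069, minus strand) belongs to the gene lower in both. The Etv5 window (chr16:22438369-22438618, minus strand) lies before an inner start of that gene. For the Spred1 window and this Etv5 window, the bases just after the RefSeq start were found in no GENCODE transcript of the gene.
Dusp6: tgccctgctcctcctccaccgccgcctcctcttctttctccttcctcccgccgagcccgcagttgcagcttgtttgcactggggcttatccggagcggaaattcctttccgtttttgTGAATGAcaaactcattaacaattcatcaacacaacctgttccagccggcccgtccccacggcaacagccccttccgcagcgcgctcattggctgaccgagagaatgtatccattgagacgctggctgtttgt
Spred1: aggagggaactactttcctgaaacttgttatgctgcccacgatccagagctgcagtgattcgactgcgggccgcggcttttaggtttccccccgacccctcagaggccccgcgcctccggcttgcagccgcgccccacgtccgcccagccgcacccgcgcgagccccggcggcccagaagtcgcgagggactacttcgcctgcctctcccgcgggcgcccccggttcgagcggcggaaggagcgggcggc
Spry2: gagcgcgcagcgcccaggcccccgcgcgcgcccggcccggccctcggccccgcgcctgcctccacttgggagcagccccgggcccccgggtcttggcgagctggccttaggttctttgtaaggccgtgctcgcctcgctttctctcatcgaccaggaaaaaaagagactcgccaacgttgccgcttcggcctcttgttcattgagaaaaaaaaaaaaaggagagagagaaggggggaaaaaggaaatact
Etv5: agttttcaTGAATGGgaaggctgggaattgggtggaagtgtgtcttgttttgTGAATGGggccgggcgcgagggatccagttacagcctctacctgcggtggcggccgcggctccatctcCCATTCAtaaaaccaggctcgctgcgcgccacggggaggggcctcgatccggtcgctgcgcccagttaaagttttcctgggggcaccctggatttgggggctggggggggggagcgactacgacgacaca

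Dusp6 holds 1 TGAATGA, between 133 and 127 bases before its start. The inner Etv5 start has 3 TGAATGG, whose first bases in the window lie 242, 198 and 130 bases before it. None of these letters occurs in the windows of Spred1, Spry2, Spry1, Spred2 and Il17rd or at the outer Etv5 start. Over all 32851 RefSeq windows of the same length, 3.14% hold TGAATGA, 2.98% hold TGAATGG and 5.93% hold either. The ETS core CCGGAA (reverse complement TTCCGG) is found in 12% of all windows and in 0 of the 8 windows of the members.

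The libraries held between 15568628 and 17306227 counts. The 2 Virma cKO libraries differed by less than the sampling noise, with a chi-square over its degrees of freedom of 0.914 against 1.31 to 2.84 in the other pairs, and were counted as 1 sample with no SD. Mettl3 stood at 35.7 and 35.2 CPM (CPM being counts scaled to one common library size) in Mettl3 WT and at 35.4 and 33.9 in the libraries labelled Mettl3 cKO, a gene count that does not check the label. Virma stood at 93.3 and 88.8 CPM in Virma WT and at 70.8 and 73.8 in the libraries labelled Virma cKO, a fall of 0.33 ± 0.06 on the log2 scale (edgeR, adjusted p = 0.000102). Mettl3 was lower there too, at 34.1 and 33.6 CPM against 45.8 and 44.3 in Virma WT (−0.42 ± 0.08, edgeR, adjusted p = 0.000232). All 10 primitive endoderm markers and all 10 pluripotency markers listed were detected in every library. The summed primitive endoderm markers were 8046 to 8070 CPM in Mettl3 WT, 4949 to 4966 in Mettl3 cKO, 6743 to 6785 in Virma WT and 939 to 954.3 in Virma cKO. The 13 fibroblast markers summed to 183.1 to 196.7, 357.6 to 358.7, 484.6 to 486 and 1112 to 1120 CPM in the same order, and none of them was at 0 in any library. Pluripotency markers summed to 1815 to 1868 CPM, but 1349 to 1362 in Virma cKO, and 8 trophectoderm markers to 819.1 to 872.7 CPM, but 1136 to 1140 in Virma cKO. Of these 8, 3 rose and 2 fell in Virma cKO (median 0.04), and the keratin genes Krt8 (536 and 537 CPM) and Krt18 (463 and 467 CPM), picked out after their values were seen, made up most of the sum. In bulk RNA, fewer cells of a type and less RNA per cell cannot be told apart. Group names below are those of the labels.

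Among the ERK feedback and target genes, Etv4 and Dusp6 were higher and Spry2 was lower in both knockouts, whichever WT pair served as control. Etv4 rose 1.73-fold in Mettl3 cKO and 1.51-fold in Virma cKO, Dusp6 rose 1.37-fold and 1.54-fold, and Spry2 stood at 0.72 and 0.579 of its WT level. Of the 10 members, 5 rose and 1 fell in Mettl3 cKO, while 5 rose and 4 fell in Virma cKO. Across all 14229 genes tested 55.1% were called in the Mettl3 comparison (27.1% higher, 28% lower) and 52.3% in the Virma comparison (26.2% higher, 26.1% lower). In the Virma comparison 50% of the calls were higher, and 65.4% with scaling by total count, which moved the median of all genes from 0.02 to 0.148. The count of members called in Mettl3 cKO, 6 of 10, is thus near that background, and 9 of 10 were called in Virma cKO. The median log2 fold change of the members was 0.22 and 0.33, and that of all genes tested 0.01 and 0.02. No member reached a called 2-fold change in either knockout, whereas 6.02% and 8.99% of all genes did. Both comparisons set libraries labelled as a knockout of an m6A writer subunit against WT libraries, and neither shares its control libraries with the other. The edgeR quasi-likelihood test was used, with Benjamini-Hochberg adjustment over all genes tested.

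**Figure D1:**
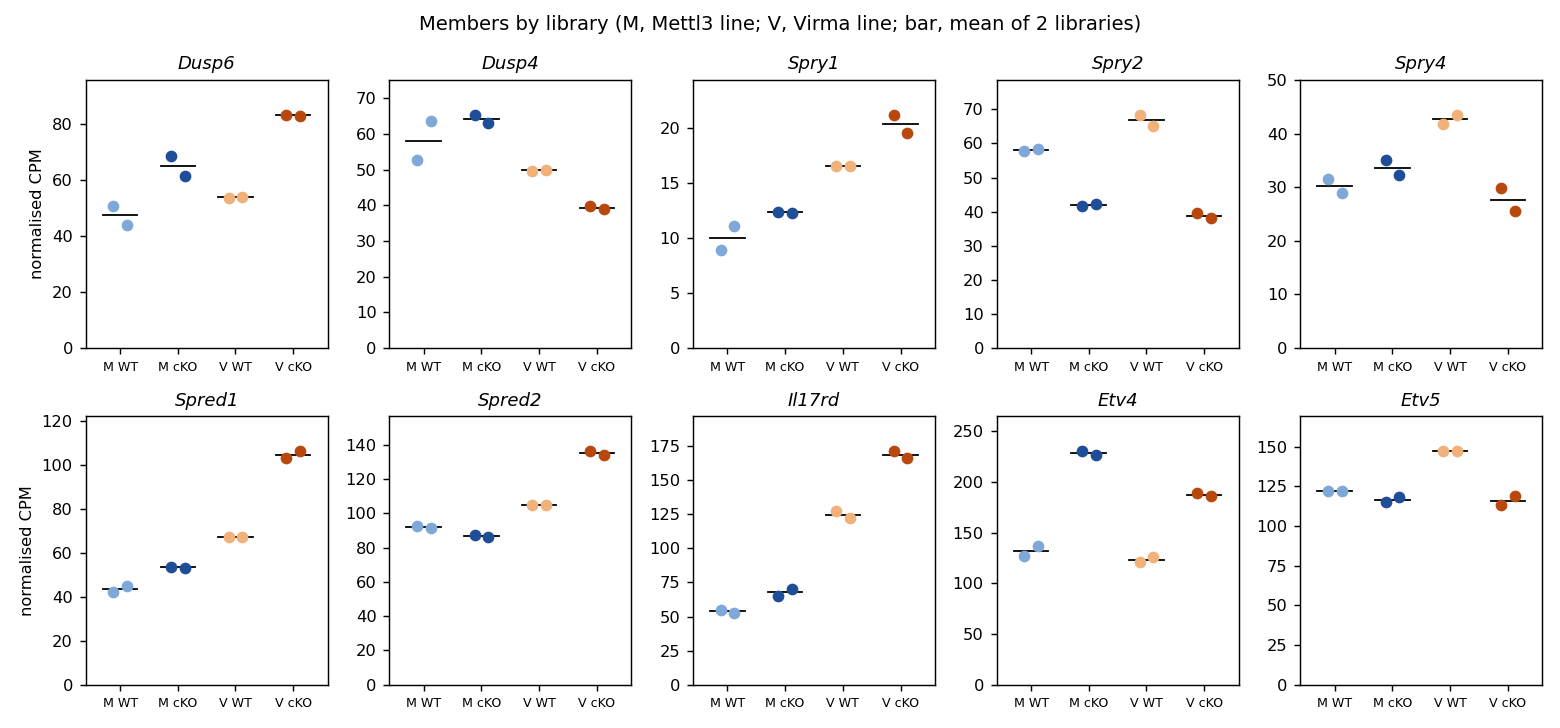
Normalised CPM (vertical axis from 0) of the 10 members in the 8 libraries, with 1 point per library and a bar at the mean of each pair. Etv4 and Dusp6 sit higher and Spry2 lower in both cKO pairs than in either WT pair, while Il17rd, Spred1 and Spry1 are higher in all 4 Virma libraries than in all 4 Mettl3 libraries. How many of all genes separate in these ways was not computed.

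Per kilobase of exon, which allows genes to be compared with each other, Etv4 had the highest level of the 10 members in every group, from 39.8 CPM per kb in Virma WT to 73.5 in Mettl3 cKO. Spry1 had the lowest level in Mettl3 WT (3.43 CPM per kb), Mettl3 cKO (4.27) and Virma WT (5.68), and Spry4 in Virma cKO (5.83). Etv5 was at 28.3 to 35.8 CPM per kb and Spry2 at 18.6 to 32. Il17rd spanned the widest range over groups of any member, 3.12-fold from the lowest to the highest group mean, and Etv5 the narrowest, 1.27-fold.

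The phosphatases Dusp6 and Dusp4 went separate ways. Dusp6, a cytoplasmic phosphatase specific for ERK, stood at 50.9 and 44.1 CPM in Mettl3 WT and 68.7 and 61.4 in Mettl3 cKO. In the Virma line it stood at 53.7 and 54.1 CPM in WT and at 83.3 and 83 in cKO. All 4 cKO libraries were above all 4 WT libraries. The log2 fold change was 0.45 ± 0.07 (SE; edgeR, adjusted p = 5.18e-06) in Mettl3 cKO and 0.62 ± 0.08 (edgeR, adjusted p = 3.62e-07) in Virma cKO, and the 2 effects differed by 0.17 ± 0.10, which was not called (edgeR, adjusted p = 0.205). Against the WT pair of the other line Dusp6 was higher by 0.27 ± 0.07 in Mettl3 cKO and by 0.80 ± 0.08 in Virma cKO. The difference between the lines passed the test with scaling by total count (0.27, adjusted p = 0.0431) and without replicate 2 of Mettl3 WT (0.27, adjusted p = 0.0108).

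Dusp4, a nuclear phosphatase of ERK and other MAP kinases, had 52.6 and 63.6 CPM in Mettl3 WT against 65.4 and 63.2 in the knockout. The Virma WT libraries had 49.7 and 49.9 CPM and their knockout 39.7 and 39.1. The 2 Mettl3 WT libraries lay apart and overlapped with Mettl3 cKO, so that 9 of the 10 members had separate libraries in the Mettl3 line, where 75% of all genes did. In the Virma line this held for all 10 members and for 84.5% of all genes. For separation of the 2 lines, of all 4 groups, or of all cKO from all WT libraries, no share of all genes was computed. This limit applies to such statements on Dusp6 above and on Spry2, Spry1, Spred1, Il17rd and Etv4 below. Dusp4 was at 0.14 ± 0.07 in Mettl3 cKO without passing the test (edgeR, adjusted p = 0.0782) and fell by 0.34 ± 0.09 in Virma cKO (edgeR, adjusted p = 0.0036). Without replicate 2 of Mettl3 WT it was called higher in Mettl3 cKO (0.29, adjusted p = 4.9e-05), as with scaling by total count (0.17, adjusted p = 0.0365), and with the trend in gene length and GC content removed it stood at −0.05. The fall in Virma cKO did not pass with scaling by total count (−0.21, adjusted p = 0.0592). The 2 effects differed by −0.49 ± 0.12 (edgeR, adjusted p = 0.00166), a difference lost once the trend in length and GC content was taken out (−0.27, adjusted p = 0.0758).

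The 3 Sprouty genes, whose products restrain signalling between the receptor and Ras or Raf, differed from each other. Spry2 stood at 57.9 and 58.5 CPM in Mettl3 WT and at 41.7 and 42.1 in Mettl3 cKO. In the Virma line it was at 68.4 and 65.2 CPM in WT and at 39.6 and 38 in cKO. All 4 cKO libraries were below all 4 WT libraries, a separation whose share of all genes was not computed. The log2 fold change was −0.47 ± 0.06 in Mettl3 cKO (edgeR, adjusted p = 4.9e-07) and −0.79 ± 0.08 in Virma cKO (edgeR, adjusted p = 4.9e-09). The fall was larger in Virma cKO by 0.31 ± 0.10 (edgeR, adjusted p = 0.013), a difference that did not pass with DESeq2 (adjusted p = 0.0956), with scaling by total count (adjusted p = 0.0827) or without replicate 1 of Virma WT (adjusted p = 0.0744).

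Spry4 was lower in Virma cKO, at 29.8 and 25.6 CPM against 41.8 and 43.5 in Virma WT. It fell by 0.62 ± 0.09 (edgeR, adjusted p = 5.83e-06). In the Mettl3 line it stood at 31.5 and 28.9 CPM in WT and 35 and 32.3 in cKO, a change of 0.15 ± 0.08 that was not called (edgeR, adjusted p = 0.0951). It passed with scaling by total count (0.18, adjusted p = 0.0491) and without replicate 1 of Mettl3 WT (0.22, adjusted p = 0.0183). The 2 effects differed by −0.78 ± 0.12 (edgeR, adjusted p = 1.76e-05), the largest difference among the 10 members. The Virma WT libraries had the highest Spry4 level of the 4 groups, 1.41-fold above Mettl3 WT, and against Mettl3 WT the libraries of Virma cKO stood at −0.12 ± 0.10 (edgeR, adjusted p = 0.277).

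Spry1 had the fewest counts of the members, 148 to 352 per library. Its level was 8.87 and 11.1 CPM in Mettl3 WT against 12.4 and 12.3 in the knockout. Both Virma WT libraries had 16.5 CPM, and the Virma cKO libraries 21.2 and 19.5. The 4 groups did not overlap. The rise in Mettl3 cKO was 0.31 ± 0.12 (edgeR, adjusted p = 0.036), and the value in Virma cKO, 0.30 ± 0.13, missed the threshold (edgeR, adjusted p = 0.0527). The 2 effects differed by −0.01 ± 0.18 (edgeR, adjusted p = 0.966). With all 8 libraries entered separately the Virma value passed (adjusted p = 0.00808), as it did without either library of Mettl3 WT (adjusted p = 0.00843 and 0.00813) or replicate 2 of Virma cKO (0.36, adjusted p = 0.0194). The Mettl3 call was lost with DESeq2 (adjusted p = 0.194), with the trend in length and GC content taken out (0.11, adjusted p = 0.501), in the line fitted on its own (adjusted p = 0.0636) and without replicate 1 of Mettl3 WT (0.16, adjusted p = 0.273). It was also lost without either library of Mettl3 cKO (adjusted p = 0.129 and 0.114) or of Virma WT (adjusted p = 0.0594 and 0.0588).

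**Figure D2:**
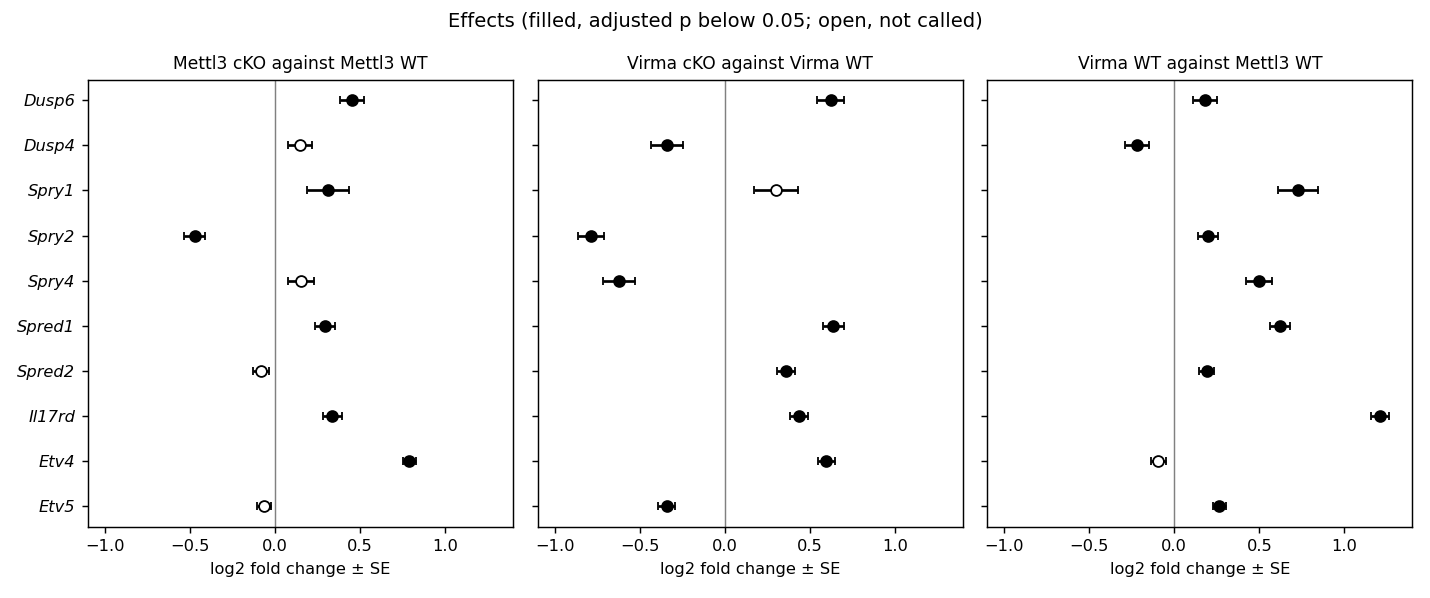
Log2 fold changes with standard errors (horizontal axis) of the 10 members in 3 comparisons, with filled points for an adjusted p below 0.05 and open points for genes not called. Dusp6, Spred1, Il17rd and Etv4 are called higher and Spry2 lower in both knockouts, and the right panel shows Il17rd at 1.21 between the WT pairs.

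The Spred genes encode relatives of Sprouty that recruit the Ras inactivator neurofibromin to the membrane. Spred1 stood at 42.1 and 45.1 CPM in Mettl3 WT and at 53.7 and 53.1 in Mettl3 cKO. In the Virma line it was at 67.1 and 67 CPM in WT and at 103 and 106 in cKO. Both knockouts were above their own WT, and every Virma library was above every Mettl3 library. The rise was 0.29 ± 0.06 in Mettl3 cKO (edgeR, adjusted p = 0.000237) and 0.64 ± 0.06 in Virma cKO (edgeR, adjusted p = 6.65e-09). The difference of 0.35 ± 0.09 (edgeR, adjusted p = 0.00255) turned to −0.02 (adjusted p = 0.911) once the length and GC trend was removed, with the Mettl3 value then at 0.58.

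Spred2 rose in the Virma line, from 105 CPM in both Virma WT libraries to 136 and 134 in Virma cKO (0.36 ± 0.05, edgeR, adjusted p = 2.44e-06). It was at 92.6 and 91.4 CPM in Mettl3 WT and at 87.5 and 86.2 in Mettl3 cKO, −0.08 ± 0.05 and not called (edgeR, adjusted p = 0.124). The test of the difference called it, at 0.44 ± 0.07 (edgeR, adjusted p = 1.39e-05). With the trend in length and GC content taken out, Spred2 was called lower in Mettl3 cKO (−0.11, adjusted p = 0.0332).

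Il17rd encodes Sef, a transmembrane protein that holds active MEK and ERK away from the nucleus. The Mettl3 WT libraries had 54.9 and 52.7 CPM and their knockout 65.3 and 70.4. In the Virma line the WT libraries had 127 and 122 CPM and the knockout 171 and 166, so that no group overlapped with another. The rises were 0.34 ± 0.06 (edgeR, adjusted p = 1.83e-05) and 0.44 ± 0.05 (edgeR, adjusted p = 2.77e-07). They differed by 0.10 ± 0.08, which was not called (edgeR, adjusted p = 0.328), although it passed with scaling by total count (0.20, adjusted p = 0.0417). The 2 WT pairs differed by more than either knockout from its own WT: Il17rd was 2.31-fold higher in Virma WT than in Mettl3 WT (1.21 ± 0.05, edgeR, adjusted p = 5.28e-15).

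The ETS factors Etv4 and Etv5, which carry FGF signals into transcription, did not move together. Etv4 stood at 127 and 137 CPM in Mettl3 WT and at 230 and 226 in Mettl3 cKO. In the Virma line it was at 121 and 126 CPM in WT and at 189 and 186 in cKO. The WT pairs lay close to each other and all 4 cKO libraries lay above them, by 0.79 ± 0.04 (edgeR, adjusted p = 7.78e-14) and 0.60 ± 0.05 (edgeR, adjusted p = 3.92e-10). The effect was smaller in Virma cKO by 0.19 ± 0.06 (edgeR, adjusted p = 0.0207), a difference lost with DESeq2 (adjusted p = 0.113) and with scaling by total count (−0.09, adjusted p = 0.275). It was also lost without replicate 1 of Mettl3 WT, replicate 1 of Mettl3 cKO or replicate 2 of Virma WT (adjusted p = 0.0654, 0.0724 and 0.0843), and it turned to 0.04 with the length and GC trend removed.

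Etv5 stood at 122 CPM in both Mettl3 WT libraries, 115 and 118 in Mettl3 cKO, 147 in both Virma WT libraries and 113 and 119 in Virma cKO. The Virma WT pair was the highest, and the other 6 libraries lay between 113 and 122 CPM. Etv5 fell by 0.34 ± 0.05 in Virma cKO (edgeR, adjusted p = 3.29e-06) and stood at −0.07 ± 0.04 in Mettl3 cKO (edgeR, adjusted p = 0.175), where removing the trend in length and GC content made it pass (−0.13, adjusted p = 0.00905). The 2 effects differed by −0.27 ± 0.06 (edgeR, adjusted p = 0.00143). Against Mettl3 WT, Etv5 in Virma cKO was at −0.07 ± 0.05 and not called (edgeR, adjusted p = 0.199).

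In both knockout comparisons together, 4 members (Dusp6, Spred1, Il17rd and Etv4) were called higher in each and 1 (Spry2) lower in each, against 13.7% and 14.2% of all genes. No member was called in opposite directions, and 6.76% of all genes were. For 7 of the 10 members the 2 effects differed by the test, 2 more positive and 5 more negative in the Virma line, against 39.1% of all genes (17.9% and 21.2%). Scaling by total count moved the share of higher calls in this comparison from 45.8% to 60.3%. Of these differences, those of Spry4, Spred2 and Etv5 stayed called under each of the 17 alternatives tried, none of which swapped the control pairs. With the other line's WT as control, Spry4 stood at −0.343 in Mettl3 cKO and −0.125 in Virma cKO, and Etv5 at −0.331 and −0.075. For both genes the value in Mettl3 cKO was then the more negative. Spred2 stood at −0.274 and 0.550.

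The control libraries of the 2 lines also differed in this set. In Virma WT 8 members were higher than in Mettl3 WT and 1, Dusp4, was lower (−0.22 ± 0.07, edgeR, adjusted p = 0.0131), where 25.4% and 22.2% of all genes were called (47.6% in all). Il17rd was the 1 member past 2-fold, as were 6.15% of all genes. After Il17rd the largest differences were those of Spry1 (0.72 ± 0.12), Spred1 (0.62 ± 0.06) and Spry4 (0.50 ± 0.07), and Etv4 was not called (−0.09 ± 0.04, edgeR, adjusted p = 0.0736). It passed in 2 of 17 alternatives, without replicate 1 of Mettl3 WT (−0.15, adjusted p = 0.00668) and with the replicate number as a block (−0.09, adjusted p = 0.0404). The calls of Dusp6 (0.18 ± 0.07) and Dusp4 were lost without replicate 2 of Mettl3 WT (adjusted p = 0.303 and 0.356) and without either Virma WT library (0.112 and 0.0798 without replicate 1, 0.132 and 0.07 without replicate 2). That of Spry2 (0.20 ± 0.06) was lost without replicate 1 of Virma WT (adjusted p = 0.111). All 3 were also lost with DESeq2 (adjusted p = 0.17, 0.0734 and 0.0855).

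With Virma WT as control for Mettl3 cKO, 3 members were higher (Dusp6, Dusp4 and Etv4) and 7 lower, against 29.3% and 29.2% of all genes (58.5% in all). Il17rd turned from 0.34 to −0.88 ± 0.05, Spry1 to −0.41 ± 0.11, Spry4 to −0.34 ± 0.07 and Spred1 to −0.33 ± 0.06, while Dusp4 was higher by 0.37 ± 0.07, Spred2 lower by 0.27 ± 0.05 and Etv5 lower by 0.33 ± 0.04. With Mettl3 WT as control for Virma cKO, 6 members were higher and 2 lower, against 32.2% and 30.4% of all genes (62.5% in all). Il17rd then stood at 1.65 ± 0.06, Spred1 at 1.26 ± 0.06, Spry1 at 1.03 ± 0.14 and Dusp4 at −0.56 ± 0.09. Dusp6 and Etv4 were called higher and Spry2 lower in these 2 contrasts and in the 2 with the own control of each line, which was the case for 7.86% and 8.02% of all genes. The contrasts with the other line's control reuse the same libraries and add no replicates.

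**Figure D3:**
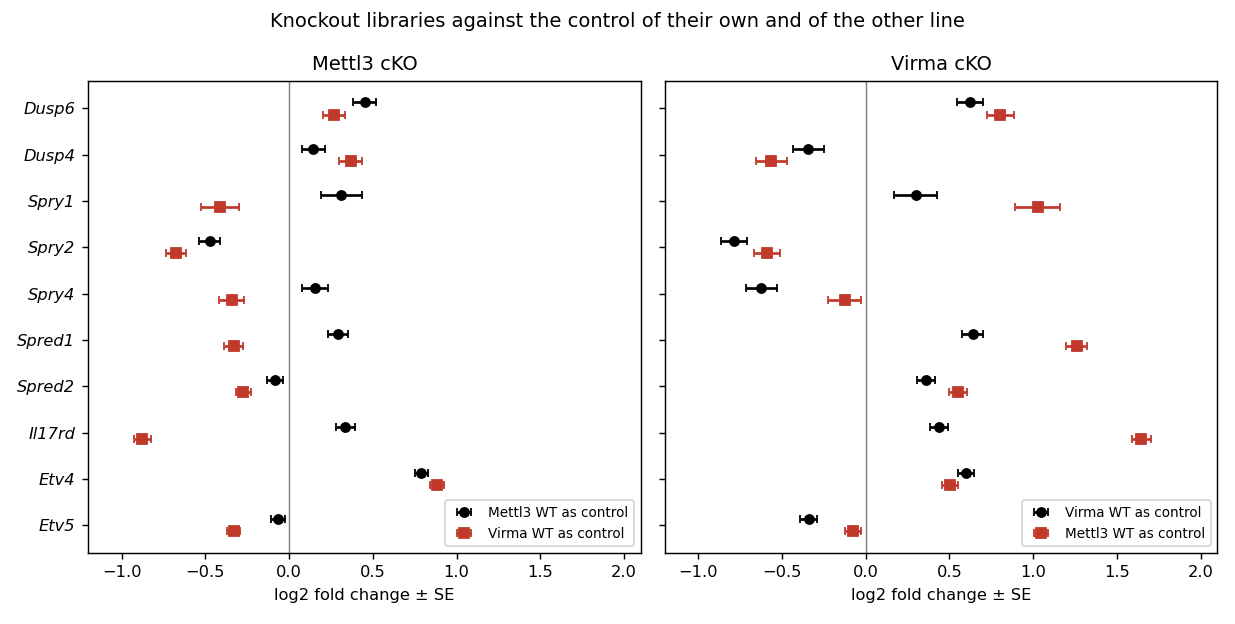
Log2 fold changes with standard errors (horizontal axis) of the 10 members in Mettl3 cKO (left) and Virma cKO (right), against the WT pair of the same line (black circles) and of the other line (red squares). Dusp6, Spry2 and Etv4 keep their side of 0 with both controls in both panels, and Il17rd moves from 0.34 to −0.88 in Mettl3 cKO.

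Markers of another cell type moved with some of these results. The group means of Il17rd, Spred1 and Spry1 were lowest in Mettl3 WT, then Mettl3 cKO, then Virma WT, and highest in Virma cKO, which is also the order of the summed fibroblast markers given above. The share of all genes with this order was not computed, and the pluripotency marker Klf2 had it too (45.95, 54.66, 61.54 and 79.9 CPM). All 13 fibroblast markers were called higher in Mettl3 cKO, in Virma cKO and in Virma WT against Mettl3 WT, with median log2 fold changes of 1.05, 1.27 and 1.76. With Virma WT as control for Mettl3 cKO, 0 of them were higher and 10 lower, in the contrast where Il17rd, Spred1 and Spry1 were also lower. Col1a1, a collagen of interstitial matrix, was at 57.1 and 61.8 CPM in Mettl3 WT and at 421 and 407 in Virma cKO. Spry2 did not follow that order, and neither did Dusp6, Dusp4, Spry4, Spred2, Etv4 or Etv5. Primitive endoderm markers fell in 9 of 10 in Mettl3 cKO and in 10 of 10 in Virma cKO, with medians of −0.61 and −2.90. The part of either marker list in the members' changes was not tested.

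**Figure D4:**
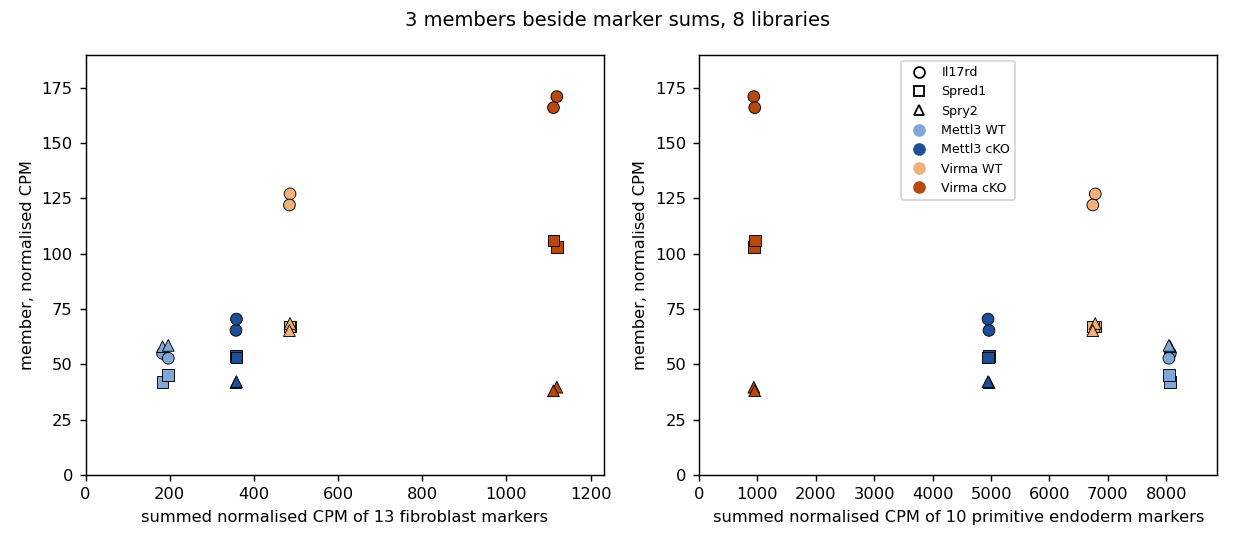
Normalised CPM of Il17rd (circles), Spred1 (squares) and Spry2 (triangles) on the vertical axis against the summed CPM of 13 fibroblast markers (left) and 10 primitive endoderm markers (right), with 1 point per library and colours for the 4 groups. Il17rd and Spred1 are highest in the Virma cKO libraries, where the fibroblast sum is 1112 to 1120 and the primitive endoderm sum 939 to 954.3.

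The genes upstream of ERK give the setting of these values. Beside the counts in this list and the next ones stand the shares of all genes. These were 27.1% higher and 28% lower in Mettl3 cKO, and 26.2% and 26.1% in Virma cKO. Of the FGF ligands and receptors 9 of 10 were tested, and 1 rose and 6 fell in Virma cKO with a median of −1.11, while 2 rose and 2 fell in Mettl3 cKO. Fgfr1, the receptor of epiblast as well as primitive endoderm cells, rose by 0.14 ± 0.04 in Mettl3 cKO and 0.41 ± 0.04 in Virma cKO. Fgfr2, the receptor that marks primitive endoderm, fell from 79.05 to 53.77 CPM in Mettl3 cKO (−0.56 ± 0.06) and from 69.57 to 28.63 in Virma cKO (−1.28 ± 0.08). Fgfr4 fell in both (−0.35 ± 0.11 and −1.81 ± 0.17), and Fgfr3 fell in Virma cKO (−1.69 ± 0.25). The ligand gene Fgf3 fell from 13.66 to 1.212 CPM in Virma cKO (−3.49 ± 0.24), and Fgf17 rose in Mettl3 cKO from 2.367 to 7.632 CPM (1.69 ± 0.19). The 2 falls in Mettl3 cKO became 1 with DESeq2, without replicate 2 of Mettl3 WT and without either library of Mettl3 cKO. They became 5 with Virma WT as control, and the 1 rise in Virma cKO became 3 with Mettl3 WT as control.

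In the relay from receptor to ERK, 5 of 18 genes rose and 10 fell in Mettl3 cKO, and 6 rose and 7 fell in Virma cKO. The 10 falls became 6 with Virma WT as control for Mettl3 cKO. Hras, 1 of the Ras genes, rose in both (0.82 ± 0.04 and 0.43 ± 0.05), and the MEK gene Map2k1 fell in both (−0.30 ± 0.05 and −0.52 ± 0.06). The adaptor Frs2 fell in Mettl3 cKO (−0.55 ± 0.06) and rose in Virma cKO (0.32 ± 0.07). So did the exchange factors Sos1 (−0.19 ± 0.06 and 0.61 ± 0.07) and Sos2 (−0.30 ± 0.11 and 0.50 ± 0.12). The kinase Braf was called lower in Mettl3 cKO alone (−0.54 ± 0.08). Mapk3, which encodes ERK1, was called lower in Virma cKO alone (−0.90 ± 0.07).

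Other brakes on the pathway, 10 of 11 in the table, rose in 2 and fell in 5 in Mettl3 cKO, and rose in 5 and fell in 2 in Virma cKO. In Mettl3 cKO 1 rose with the trend in length and GC content taken out, and 2 fell with Virma WT as control. Dusp9, an X-linked phosphatase of ERK, fell in both (−0.38 ± 0.03 and −0.81 ± 0.04), from a mean of 560.5 to 431.9 CPM in the Mettl3 line and from 446.4 to 254.4 in the Virma line. Nf1, which encodes neurofibromin, rose in Virma cKO (0.78 ± 0.08), as did Rasa1 (0.45 ± 0.07) and Spred3 (0.56 ± 0.17), but 3 of the list instead of 5 rose there with DESeq2 or without replicate 2 of Virma WT. Dusp5, an ERK phosphatase of the nucleus, rose in both (0.32 ± 0.07 and 0.35 ± 0.08), whereas Rasa1 fell in Mettl3 cKO (−0.31 ± 0.06). Cic, the Capicua gene, fell by 0.21 ± 0.03 and 0.27 ± 0.04, and was picked out after its values were seen. Among 8 other MAP kinase phosphatases, which include Dusp5, Dusp7 and Dusp9 again, 3 rose and 1 fell in Mettl3 cKO and 5 rose and 1 fell in Virma cKO, led by Dusp16, a phosphatase of JNK and p38 (0.63 ± 0.07 and 1.25 ± 0.07). With the trend in length and GC content taken out, 1 of the 8 rose and 2 fell in Mettl3 cKO.

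Of 14 other transcripts known to respond to ERK, 6 rose and 6 fell in Mettl3 cKO (median 0.11), and 9 rose and 3 fell in Virma cKO (median 0.31). Ccnd1, which encodes cyclin D1, rose by 1.14 ± 0.08 in Mettl3 cKO, and the AP-1 gene Fosl1 rose in both (1.07 ± 0.20 and 1.38 ± 0.16), as did Plaur, the urokinase receptor gene (0.81 ± 0.08 and 0.96 ± 0.09). The immediate early gene Ier2 fell in both (−0.32 ± 0.04 and −1.18 ± 0.06), and Emp1 rose in Virma cKO (1.07 ± 0.13). Egr1 (−0.305 ± 0.045 and −0.914 ± 0.057) and Fos (−0.472 ± 0.075 and −0.310 ± 0.086) also fell in both, and were picked out after their values were seen. The group means of Ccnd1 (18.9, 41.6, 51.28 and 81.59 CPM from Mettl3 WT over Mettl3 cKO and Virma WT to Virma cKO), Fosl1 and Emp1 had the order of the summed fibroblast markers, and between the WT pairs the 3 differed by 1.44 ± 0.07, 1.46 ± 0.19 and 0.81 ± 0.13. Epha2 had this order too (212.8, 234, 280.3 and 300.9 CPM). Plaur, Myc, Junb, Ier3, Ier2, Egr1, Egr2, Fos, Phlda1 and Etv1 did not. The share of all genes with this order was not computed, and the part of the fibroblast markers was not tested.

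The consensus in which the writer complex most often methylates adenosine was counted in the members' transcripts, since the libraries are labelled as knockouts of its subunits. GGACT was counted in the longest protein-coding GENCODE M21 transcript of each gene, on the sense strand. Per kilobase it occurred 3.35 times in Spry2, 2.86 times in Dusp6, 2.19 times in Dusp4 and 2.16 times in Spry1, which are at percentiles 98.8, 97.3, 91.4 and 91.1 of the tested genes. Spry4 and Etv4 were at percentiles 13.4 and 13.3, with 2 and 1 copies in all. The median was 1.63 per kb for the members and 1.06 for all tested genes. Spry2 and Dusp6, the members with the most copies per kb, fell and rose in both knockouts, and Etv4, with the fewest, rose in both. Whether any of these sites is methylated was not analysed here, and a relation of copies per kb to the fold changes was not tested.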

How the data were processed

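The values are raw counts as deposited by the authors, 1 row per gene symbol. The build mm39 and the tools Subread, STAR 2.7.11b, FastQC 0.12.1, DESeq2 and Trim Galore stand in the submitters' processing notes. The sources used here do not give what each tool did, the annotation, the strand setting or which library was made with which of the 2 kits in the labels, so kit and line, or a gene and its antisense partner, cannot be told apart. Members, lists, motifs and tests were chosen with earlier results of these data known.

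Counts were fitted in edgeR 4.0.16 (R 4.3.3) and tested by quasi-likelihood: TMM factors, robust dispersion, filterByExpr over the 4 groups (14229 genes kept) and Benjamini-Hochberg adjustment, with calls at 0.05. The Virma cKO pair entered as its rounded mean, which leaves 7 samples and 3 residual degrees of freedom. Its spread is taken from the other groups. SEs are the log2 fold change over the root of F. Normalised CPM use TMM factors of the 8 libraries. All 10 members were named, and of each other list up to 4 called genes with the largest change at an average log2 CPM of 2 or more. A gene that the rule selects in 1 list is not reported here. Exon lengths, GC content and transcripts came from GENCODE M21 (GRCm38, another build than the authors'), which matched 21144 symbols directly and left 668 unmatched. Alternatives included DESeq2 1.42.0, other scalings and filters, removal of a loess trend on gene length and GC content, the other line's control and leaving out each library.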

Additional observations from a re-analysis of the deposited data

Results flagged for a closer look

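The following members had effects in the 2 lines that differed by the edgeR test of the difference itself (Benjamini-Hochberg adjusted over all genes, Virma effect minus Mettl3 effect on the log2 scale). Spry4 differed by −0.776 (adjusted p = 1.76e-05), Dusp4 by −0.487 (0.00166), Spry2 by −0.313 (0.013), Etv5 by −0.274 (0.00143) and Etv4 by −0.190 (0.0207), all more negative in the Virma line. Spred2 differed by 0.444 (1.39e-05) and Spred1 by 0.346 (0.00255), both more positive there. Of all genes tested 39.1% differed by this test. Direction and call held in 17 of 17 alternatives for Spry4, Spred2 and Etv5, in 16 for Dusp4 and Spred1, 13 for Spry2 and 10 for Etv4. The other line's control was not among these alternatives.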

How the results depend on the processing

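In the knockout comparisons Dusp6, Spry2 and Etv4 kept their direction and call under all 19 alternatives in each line, with log2 fold changes of 0.27 to 0.56, −0.67 to −0.45 and 0.55 to 0.88 in Mettl3 cKO and of 0.61 to 0.80, −0.82 to −0.59 and 0.50 to 0.73 in Virma cKO. With the other line's WT as control, 3 members were called higher and 7 lower in Mettl3 cKO, where Spry1 (−0.41), Spry4 (−0.34), Spred1 (−0.33) and Il17rd (−0.88) reversed, and 2 lower in Virma cKO. With the length and GC trend removed, 3 members were lower in Mettl3 cKO, where 3469 genes were higher and 3701 lower in all, and Dusp4 stood at −0.054. For the difference of the effects that setting gave 1 member higher and 3 lower (1766 and 2922 of all genes, 37.7% of calls higher), with Spry1 at 0.20, Spred1 at −0.017, Il17rd at −0.101 and Etv4 at 0.035. Scaling by total count gave 4 higher and 3 lower there, with Spry1 at 0.087. It moved the median of all genes in Virma cKO from 0.020 to 0.148 and the share of calls that were higher from 50% to 65.4%, and for the difference from 45.8% to 60.3%. DESeq2 and an adjusted p of 0.01 each gave 3 members lower for the difference. DESeq2 called 2389 genes higher in Virma cKO, 1512 for the difference and 2310 for Virma WT against Mettl3 WT, against 3721, 2552 and 3613 with edgeR, and 2894, 2081 and 2183 lower, against 3718, 3017 and 3160. Between the WT pairs the 1 lower member became 0 with DESeq2 (1 at an unadjusted p under 0.05) and with edgeR at an adjusted p of 0.01 (2 unadjusted), and ranged from 0 to 2 when 1 library was left out (0 to 2 unadjusted). The difference for Spry1, not called in any setting, ranged from −0.185 (without replicate 2 of Mettl3 WT) to 0.134 (without replicate 1 of Mettl3 WT) when 1 library was left out and was 0.049 without replicate 2 of Virma cKO. Of 760 counts of calls recomputed for the other gene lists in the knockouts, 731 were within 1.5 times the main count. The causes were not tested.

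The replicate numbers did not pair the libraries: deviations of same-numbered libraries correlated at −0.00928 to 0.0234 over genes. With the replicate number as a block and all 8 libraries entered separately, 2 members were lower in Virma WT than in Mettl3 WT, where 3959 of all genes were higher and 3431 lower, and 4144 genes were higher and 4199 lower in Mettl3 cKO and 4585 and 4375 in Virma cKO, against 4109, 4174, 4570 and 4344 without the block. The block also let Dusp4 pass in Mettl3 cKO (edgeR, adjusted p = 0.0369), Spry1 in Virma cKO (0.00722) and Etv4 between the WT pairs (0.0404). Depth limits Spry1 most, with 148 to 352 counts per library.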

Other observations

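Of 9 other ETS factors that act beside Etv4 and Etv5, 1 rose and 3 fell in Mettl3 cKO, while 4 rose and 1 fell in Virma cKO. Of all genes 27.1% were called higher and 28% lower in Mettl3 cKO, and 26.2% and 26.1% in Virma cKO. In Mettl3 cKO 3 rose with Virma WT as control, and 1 fell with the trend in length and GC content taken out. In Virma cKO 2 fell with that line fitted on its own, and 2 rose at an adjusted p of 0.01. With DESeq2 the rises became 0 and 2, and without replicate 1 of Mettl3 cKO the falls there became 1, and without replicate 2 of Virma WT the rises in that line 2. Ets2, which ERK phosphorylates, rose in both (0.23 ± 0.07 and 0.70 ± 0.08), and Ets1 fell in both (−0.42 ± 0.14 and −0.68 ± 0.16). Etv1, the third gene of the Etv4 and Etv5 subfamily, fell in Mettl3 cKO (−0.67 ± 0.17) and was not called in Virma cKO (0.22 ± 0.16, edgeR, Benjamini-Hochberg adjusted p = 0.278). Its 2 effects differed by 0.88 ± 0.23 (edgeR, adjusted p = 0.00402).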
